A study of Homo sapiens with 12 samples.

Results

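Transcript levels of 10 genes of the arginine methylation machinery were compared across 4 U2OS cell lines. The genes were chosen by name as the rows for PRMT1, PRMT2, PRMT3, CARM1, PRMT5, PRMT6, PRMT7, PRMT8, WDR77, and SND1, and all 10 were found among the 25369 genes listed. U2OS is a human osteosarcoma line, and each Tet-On derivative carries a construct that doxycycline turns on. The pTRE line carries the empty vector. The WT line expresses HA-tagged wild-type E2F1, the R109K line expresses HA-tagged E2F1 with the PRMT1 site mutated to lysine, and the KK line (R111/113K) expresses HA-tagged E2F1 with both PRMT5 sites mutated to lysine. All 4 lines, pTRE included, were grown with G418 and hygromycin B and received doxycycline (1 μg/ml) for 24 hours, and poly(A) RNA was sequenced from 3 biological replicates of each. Each construct was studied in 1 stable line, so an effect of the construct and a difference that arose when the line was made cannot be told apart, and whether a line grew from 1 clone is not given in the sources used here. In the RNA of whole cultures, fewer cells that express a gene and less RNA per cell cannot be told apart either.

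Protein arginine methyltransferases move methyl groups from S-adenosylmethionine to arginine side chains. PRMT1, PRMT2, PRMT3, CARM1, PRMT6, and PRMT8 leave asymmetric dimethylarginine, PRMT5 leaves symmetric dimethylarginine and works bound to its partner WDR77 (also named MEP50), and PRMT7 leaves monomethylarginine. SND1, the p100/TSN protein, reads symmetric marks through its Tudor domain, and on E2F1 the PRMT1 and PRMT5 sites lie side by side. The question asked of these counts was whether the writers and the reader were themselves present at different transcript levels when WT E2F1 or a methylation site derivative was induced.

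The promoters of the asymmetric writer PRMT1, the symmetric writer PRMT5, its partner WDR77, and the reader SND1 are shown because the comparisons below turn on these genes. Each run covers 250 bases before the annotated transcription start to 50 bases that begin with it, on the gene's strand, 5′ to 3′, in GRCh37 (hg19), the build of the counts. Capitals mark CCAAT (or ATTGG, its reverse complement) and the E-box CACGTG.
PRMT1, chr19:50180278-50180577, plus strand: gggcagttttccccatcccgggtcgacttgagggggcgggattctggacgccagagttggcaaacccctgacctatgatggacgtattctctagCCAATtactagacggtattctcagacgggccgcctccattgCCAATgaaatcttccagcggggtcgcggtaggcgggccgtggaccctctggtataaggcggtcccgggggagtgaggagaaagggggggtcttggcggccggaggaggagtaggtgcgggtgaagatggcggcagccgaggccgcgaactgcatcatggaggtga
PRMT5, chr14:23398536-23398835, minus strand: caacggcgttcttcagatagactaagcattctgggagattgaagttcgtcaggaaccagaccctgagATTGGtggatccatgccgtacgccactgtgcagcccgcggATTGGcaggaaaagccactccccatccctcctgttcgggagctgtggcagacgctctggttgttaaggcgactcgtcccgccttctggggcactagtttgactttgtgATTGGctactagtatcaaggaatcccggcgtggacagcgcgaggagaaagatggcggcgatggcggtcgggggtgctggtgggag
WDR77, chr1:111991829-111992128, minus strand: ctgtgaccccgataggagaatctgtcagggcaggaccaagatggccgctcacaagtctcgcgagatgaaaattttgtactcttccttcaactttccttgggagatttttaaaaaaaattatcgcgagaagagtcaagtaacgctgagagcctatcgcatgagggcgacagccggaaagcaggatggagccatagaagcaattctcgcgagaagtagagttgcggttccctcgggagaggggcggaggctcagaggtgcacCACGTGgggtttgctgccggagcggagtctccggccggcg
SND1, chr7:127291998-127292297, plus strand: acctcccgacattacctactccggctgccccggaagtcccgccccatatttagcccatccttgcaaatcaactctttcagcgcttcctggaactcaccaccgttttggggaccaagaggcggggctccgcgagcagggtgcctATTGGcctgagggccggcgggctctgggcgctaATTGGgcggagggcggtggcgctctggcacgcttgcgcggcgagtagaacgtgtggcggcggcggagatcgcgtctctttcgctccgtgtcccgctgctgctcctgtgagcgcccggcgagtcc
PRMT5 has 3 matches to CCAAT, all on the other strand, SND1 has 2 on the other strand, PRMT1 has 2 on its own strand, and WDR77 has none but holds an E-box downstream of its start. Of 19860 promoters of the same length, 35.6% hold at least 1 CCAAT on either strand, 3.51% hold at least 3, and 8.53% hold CACGTG. PRMT3 also has CACGTG in this window. These 2 motifs were chosen after the sequences were seen. The E2F words TTTCCCGC, TTTCGCGC, TTTGCCGC, and TTTGGCGC were searched on both strands from 900 bases before to 100 bases after the start, the window in which the study looked for E2F motifs. The study used its own consensus motifs and, for spliced genes, ENCODE ChIP-seq peaks. A window without these words may therefore still meet its definition. Of the 10 genes, PRMT7 has a match, TTTCCCGC at chr16:68344990-68344997, which begins 68 bases after its start base, and the other 9 windows do not contain these letters. The E2F1 promoter has 2 matches, and 8.52% of all promoters have at least 1 in a window of this length.

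Between 11500537 and 31040903 reads per sample fell on genes. WT replicate 2 had the lowest total, with 31.2% of its reads on genes and 58.7% outside them, against 23.6% to 29.6% outside genes in the other 11 samples, so the WT values of the 9 tested genes and the list medians are also given without it. By a chi-square comparison of counts, KK replicate 2 was nearer to R109K replicate 2 (15.3 per degree of freedom) than to KK replicates 1 and 3 (42.1 and 30.2). It was not alone in this: WT replicate 1 stood at 7.66 from KK replicate 1 and WT replicate 3 at 6.07 from KK replicate 3. WT replicates 1 and 3 stood at 11.6 from each other. E2F1, which the counts do not separate from the construct, stood at 82.9 to 101 CPM (reads of a gene scaled by the library's normalized total) with the empty vector. It rose to 1469 to 2315 CPM in WT samples, 932 to 1283 in R109K samples, and 1112 to 1478 in KK samples (log2 fold change 4.31, 3.67, and 3.85), so the empty vector samples stood apart from the rest. R109K and KK overlapped, so E2F1 does not check the labels of the 3 E2F1 lines against one another. Of the marker genes for the labelled cells, VIM was at 1150 CPM or more in every sample and COL1A1 at 541 or more, whereas COL1A2 was at 0.588 or less. The osteoblast markers IBSP, BGLAP, and SP7 were at or near 0, with at most 0.241 CPM, and ALPL reached 2.61. KRT8 and KRT18 were present at 168 CPM or more and EPCAM at 9.88 or more, whereas KRT19 did not pass 0.107 and CDH1 did not pass 1.44. PTPRC, PECAM1, and CDH5, which mark blood and endothelial cells, did not pass 0.711 CPM. CD34 stood at 6.23 to 8.30 CPM in pTRE and rose in all 3 E2F1 lines (log2 fold change 0.66 in WT, 1.23 in R109K, and 1.099 in KK). COL1A1, SPARC, CDH2, and KRT8 fell in all 3, and the part of these shifts in the results below was not tested.

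Levels of different genes were compared as CPM per kilobase of the MANE Select transcript, and the order between genes depends on that length. By CPM alone, the pTRE mean of SND1 (216) was above that of PRMT1 (207), with overlapping samples. All annotated exons together span 3276 bases in PRMT5 and 2685 in WDR77, against 2304 and 2456 in these transcripts. An order by those lengths was not tested. In pTRE, PRMT1 was the most abundant of the 10 transcripts at 156 ± 13.7 CPM per kilobase (SD, n = 3), which was 2.49 times SND1 (62.7 ± 2.83) and 3.05 times PRMT5 (51.2 ± 3.45). WDR77 followed at 42.7 ± 2.37 and PRMT2 at 38.9 ± 2.98, and the samples of this pair overlapped. Below them stood CARM1 at 23.7 ± 3.73, PRMT6 at 17.3 ± 0.829, PRMT3 at 13.95 ± 2.07, and PRMT7 at 10.3 ± 0.995, each apart from its neighbours in all 3 pTRE samples. PRMT8, the close relative of PRMT1 that is known from brain, was at 0.0532 ± 0.0232. PRMT1 and SND1 kept the top places in every line with no overlap between them. By this measure PRMT5 and WDR77 changed places. PRMT5 was above WDR77 in all 3 pTRE samples without overlap, by 1.199 times. In R109K and KK the mean of WDR77 was the higher, by 1.15 and 1.05 times, with overlapping samples. PRMT3 and PRMT6 also changed places, with PRMT3 above PRMT6 in WT and KK without overlap.

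**Figure D1:**
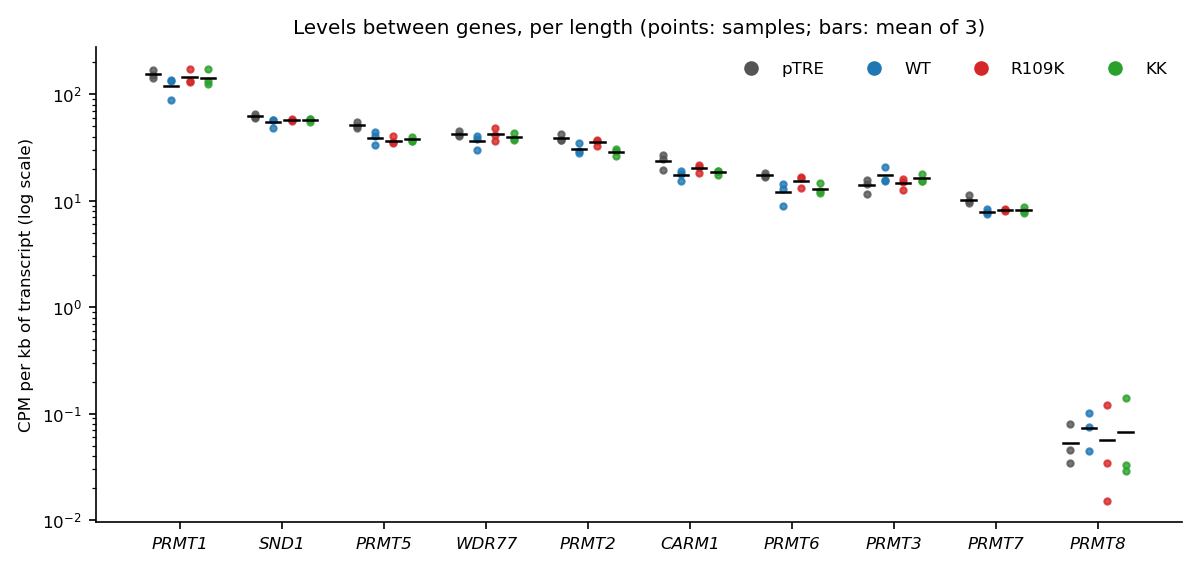
CPM per kilobase of transcript (log axis) for the 10 genes in the 4 lines, with a point for each sample and a bar for the mean of 3. PRMT1 stands highest at 156 CPM per kilobase in pTRE and PRMT8 lowest at 0.0532, and the lines differ far less than the genes do.

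Of the 10 genes, 9 passed the filter on low counts and were tested, with 291 to 1337 reads per sample for PRMT6 and 1472 to 6394 for PRMT1, and PRMT8 did not. No gene of the set moved beyond 2-fold in any line, and the largest fitted change against pTRE was -0.50 on the log2 scale, for PRMT6 in WT. In the WT line, 0 of 9 passed an adjusted p of 0.01 by edgeR's quasi-likelihood test, where 11.4% of all tested genes fell and 14.8% rose. DESeq2 called 3, namely CARM1, PRMT5, and PRMT7, all lower. Over 7 alternative fits, DESeq2 among them, 3351 to 5193 of all genes were called in WT in either direction. The number that DESeq2 alone called lower is not given here, so its 3 of 9 has no background of its own. At an unadjusted p under 0.05, 7 of the 9 passed, against 49% of all tested genes, and without WT replicate 2 it was 6, against 45.3%. In R109K, 1 of 9 fell (background 7.23%) and none rose (background 10%), and DESeq2 called the same gene, PRMT5. In KK, 2 of 9 fell (background 10.7%) and none rose (background 13.8%), and DESeq2 also called these, PRMT2 and PRMT5. With a change over 2-fold required as well, 11.8% of all tested genes passed in WT, 7.19% in R109K, and 10.9% in KK.

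At an adjusted p of 0.05, 5 of 9 were lower in WT (background 18.7%), 2 of 9 in R109K (12.9%), and 4 of 9 in KK (17.3%). Without WT replicate 2 the WT count was 2, CARM1 and PRMT7, against a background of 17.1%. All 3 samples lay below all 3 pTRE samples for 7 of 9 genes in WT (background 26.3%), 3 of 9 in R109K (22.9%), and 6 of 9 in KK (24.5%). For WT, R109K, and KK in turn, the 9 genes had median log2 fold changes of -0.37, -0.13, and -0.33, whereas the median over all tested genes was 0.0022, -0.00074, and -0.0091. In WT the median of the 9 was -0.27 without WT replicate 2. The 3 comparisons share their pTRE samples, so they are not separate evidence of a direction. In a single test for any difference among the 4 lines, 0 of 9 passed 0.01 by edgeR (background 23.9%) and 3 by DESeq2. Over 6 alternative fits of that test, DESeq2 among them, 3657 to 5390 of all genes passed, and the number for DESeq2 alone is not given here. By edgeR 5 of 9 had an unadjusted p under 0.05 (background 47.3%). The lowest adjusted p by edgeR in that test was that of PRMT5, at 0.0141.

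**Figure D2:**
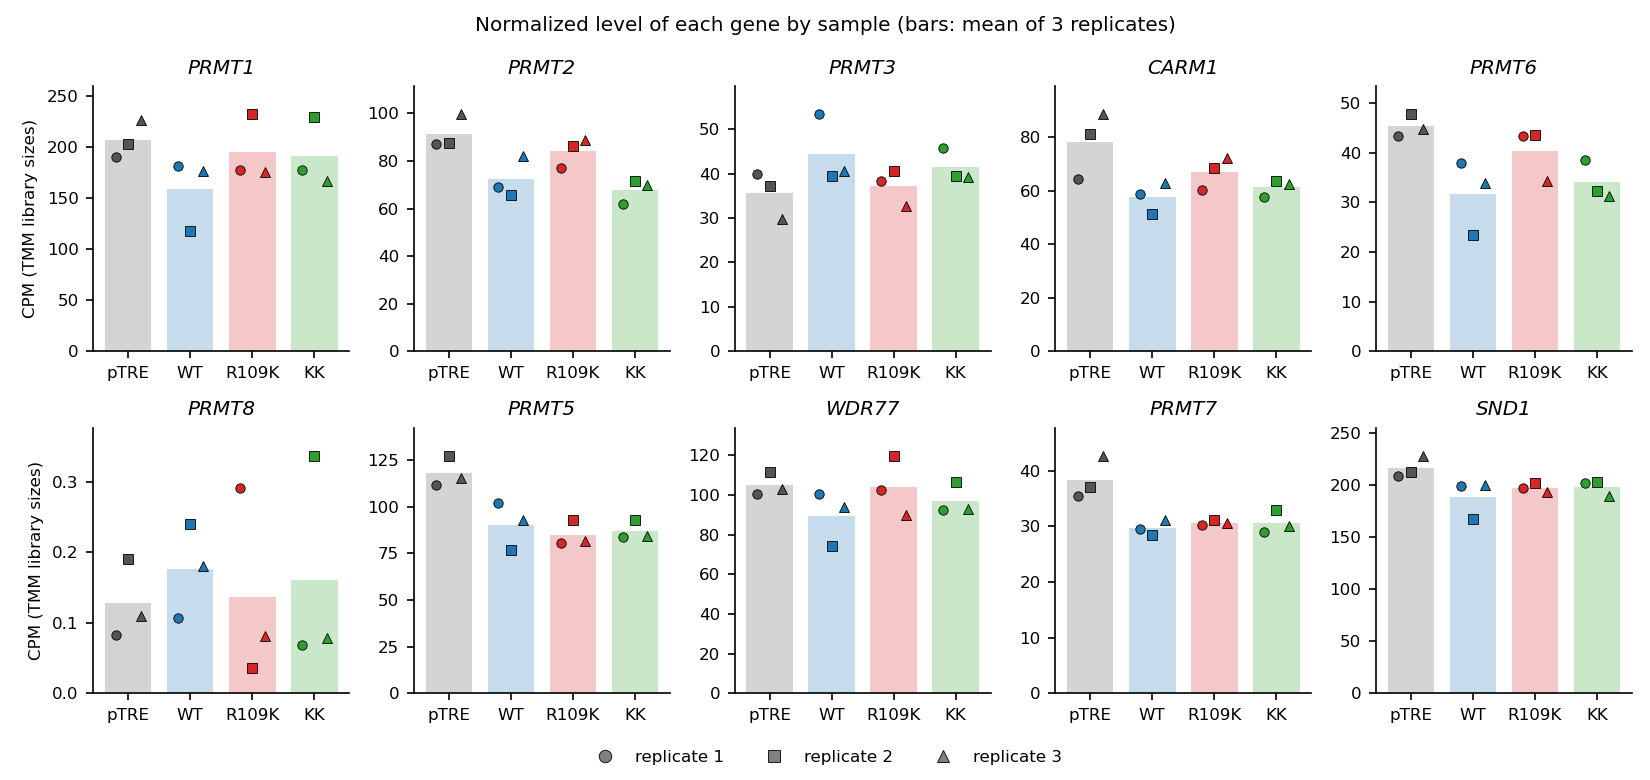
CPM of each gene (linear axes from 0, a scale for each gene) in every sample, with bars for the mean of 3 and a marker shape for the replicate number. PRMT5 in R109K and KK lies below all pTRE samples, while PRMT1 and WDR77 are lowest in WT replicate 2 and high in replicate 2 of R109K and KK.

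**Figure D3:**
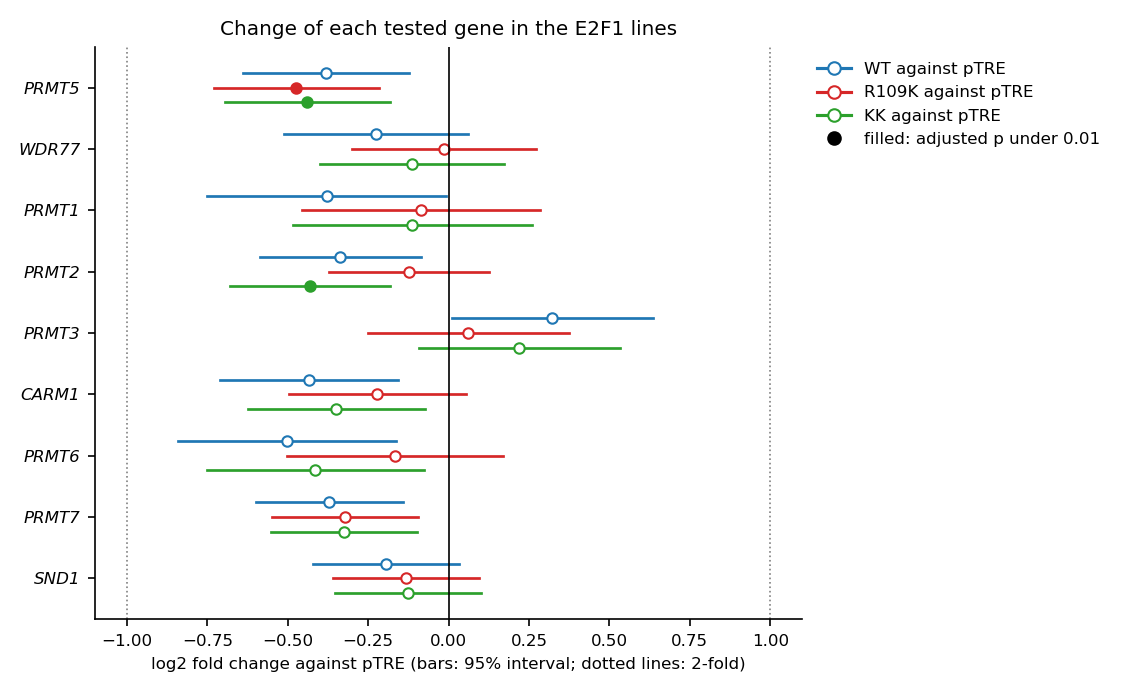
Log2 fold change of the 9 tested genes against pTRE in each E2F1 line, with 95% intervals, filled points for an adjusted p under 0.01 and dotted lines at 2-fold. PRMT5 in R109K and KK and PRMT2 in KK are filled, and PRMT3 is the gene whose 3 estimates are all above 0.

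PRMT5 (chr14:23389734-23398617, minus strand, 17 exons) is the main enzyme of symmetric dimethylation and acts on spliceosomal Sm proteins, histones, and E2F1. Its level was 112, 127, and 115 CPM in the 3 pTRE samples. It was 102, 76.5, and 92.98 in WT, 80.5, 92.8, and 81.6 in R109K, and 83.9, 92.7, and 84.2 in KK. Every sample of the E2F1 lines lay below every pTRE sample, and the 3 E2F1 lines overlapped one another. PRMT5 fell by 28.0% in R109K (log2 fold change -0.47 ± 0.12, SE, adjusted p = 0.00803 from edgeR) and by 26.3% in KK (-0.44 ± 0.12, adjusted p = 0.00958). In WT the difference was -0.38 ± 0.12 (adjusted p = 0.0202), and without WT replicate 2 it was -0.28 (adjusted p = 0.0710). The 2 calls lie close to the threshold. When a sample of the comparison was left out, the change stayed between -0.54 and -0.42 in R109K and between -0.49 and -0.39 in KK, but the adjusted p rose above 0.01 whichever sample it was (0.0109 to 0.0457 and 0.0106 to 0.0489). With no filter on low counts it was 0.0146 in R109K and 0.0161 in KK, and in KK it was 0.0122 with RLE normalization and 0.0107 in a fit to only the 6 samples of that comparison.

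WDR77 (chr1:111982512-111991878, minus strand, 10 exons) encodes the WD repeat protein that holds PRMT5 in its active complex. Its level was 100, 111, and 103 CPM in pTRE and 101, 74.4, and 93.8 in WT. In R109K it was 102, 119, and 89.8, and in KK 92.2, 106, and 92.7. The lines overlapped, and no difference from pTRE passed (WT -0.23 ± 0.13, adjusted p = 0.192, or -0.11 and 0.531 without WT replicate 2, R109K -0.02 ± 0.13, adjusted p = 0.953, KK -0.11 ± 0.13, adjusted p = 0.554). The 95% interval in R109K, -0.30 to 0.27, does not show that WDR77 was equal to pTRE. The coding gene ATP5F1 starts 208 bases away on the other strand and shares 90 bases of exon with WDR77, and it stood at 130 to 264 CPM with its lowest value also in WT replicate 2. A long noncoding RNA annotated on the same strand shares 673 bases of exon with WDR77. It was not found by name among the counted genes, so reads there may belong to either.

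The ratio of PRMT5 to WDR77 within a sample does not depend on how libraries are scaled. It was taken after adding 2 reads to each gene. The ratio was 1.11, 1.14, and 1.122 in pTRE and 1.01, 1.03, and 0.992 in WT. In R109K it was 0.787, 0.778, and 0.909, and in KK 0.910, 0.873, and 0.909. All samples of the E2F1 lines lay below pTRE, and all of R109K and KK also lay below all of WT. On the log2 scale the difference from pTRE was -0.15 in WT, -0.45 in R109K, and -0.32 in KK, and from WT it was -0.30 in R109K and -0.17 in KK. Each gave p = 0.1 in a two-sided exact permutation test, the smallest that 3 samples against 3 can give, and 0.15 after adjustment over the 18 ratio tests.

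PRMT1 (chr19:50179043-50192286, plus strand, 11 exons) carries out most asymmetric dimethylation in human cells and modifies the E2F1 arginine that R109K lacks. Its level was 191, 203, and 227 CPM in pTRE and 182, 118, and 177 in WT. In R109K it was 178, 232, and 176, and in KK 178, 229.7, and 167. WT lay below pTRE in all samples, and replicate 2 was the lowest of WT but the highest of R109K and of KK. The difference from pTRE was -0.38 ± 0.17 in WT (adjusted p = 0.0950), and -0.21 without WT replicate 2 (adjusted p = 0.314). It was -0.09 ± 0.17 in R109K (adjusted p = 0.770) and -0.11 ± 0.17 in KK (adjusted p = 0.656).

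The ratio of PRMT5 to PRMT1 sets the symmetric against the asymmetric writer in the same sample. It was 0.584, 0.624, and 0.508 in pTRE and 0.560, 0.648, and 0.525 in WT. In R109K it was 0.453, 0.3996, and 0.465, and in KK 0.472, 0.404, and 0.503. WT overlapped pTRE (difference 0.01 on the log2 scale, exact permutation p = 1, and a difference of -0.072 without WT replicate 2), and every R109K and KK sample lay below every pTRE and WT sample. The log2 difference was -0.38 in R109K and -0.32 in KK against pTRE, and -0.39 and -0.33 against WT. These 4 tests also stopped at the smallest exact permutation p of 0.1 (adjusted 0.15). KK replicate 3 (0.503) and pTRE replicate 3 (0.508) were nearly level.

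**Figure D4:**
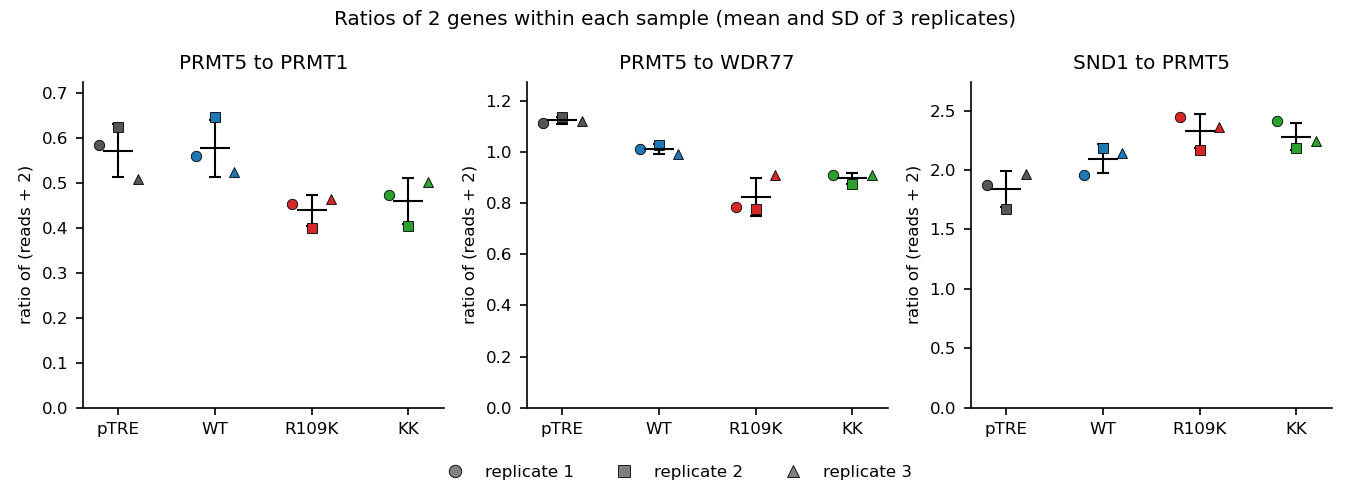
Ratio of PRMT5 to PRMT1, PRMT5 to WDR77, and SND1 to PRMT5 in each sample (2 reads added to each gene, axes from 0), with the mean and SD of 3. The ratio of PRMT5 to PRMT1 is 0.3996 to 0.503 in R109K and KK and 0.508 to 0.648 in pTRE and WT.

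PRMT2 (chr21:48055507-48085036, plus strand) is a weak asymmetric writer that also acts as a nuclear receptor coactivator. It stood at 87.1, 87.8, and 99.6 CPM in pTRE and 69.2, 65.6, and 82.3 in WT. R109K had 77.3, 86.4, and 88.6, and KK had 62.0, 71.7, and 69.9. WT and KK lay wholly below pTRE, and R109K overlapped it. PRMT2 fell by 25.8% in KK (-0.43 ± 0.12, adjusted p = 0.00922). In WT the difference was -0.34 ± 0.12 (adjusted p = 0.0323), or -0.27 without WT replicate 2 (adjusted p = 0.0968), and in R109K it was -0.12 ± 0.12 (adjusted p = 0.485). All R109K samples were above all KK samples, by 0.31 ± 0.12 (95% interval 0.06 to 0.56), but this did not pass in the unpaired fit (adjusted p = 0.256). With same-number samples of the 2 lines paired, the difference was 0.31 ± 0.06 (95% interval 0.18 to 0.44, R109K higher in 3 of 3 pairs) and passed (adjusted p = 0.00167 from edgeR). The paired difference was 0.30 without pair 1 (adjusted p = 0.0503) and 0.29 without pair 3 (adjusted p = 0.0179), so the call was lost. Without pair 2 it was 0.34 (adjusted p = 8.61e-08), in a fit that called 3496 of 16172 genes at 0.01. The fits without pair 1 and pair 3 called 911 of 16039 and 1309 of 16211, so these adjusted p-values are not on a like footing. Leaving out a sample of the comparison moved the KK value between -0.47 and -0.37, with an adjusted p of 0.0109 to 0.0518. It was 0.0151 with no filter on low counts, 0.0111 with RLE normalization, and 0.0141 with only the 6 samples of the comparison.

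CARM1 (chr19:10982229-11033751, plus strand) is PRMT4, the coactivator that methylates histone H3 and p300. It stood at 64.4, 81.1, and 88.4 CPM in pTRE and 58.8, 51.2, and 62.9 in WT. R109K had 60.2, 68.4, and 72.1, and KK had 57.7, 63.5, and 62.5. WT and KK lay below all pTRE samples, although pTRE replicate 1 was near them. The difference from pTRE was -0.43 ± 0.13 in WT (adjusted p = 0.0149), or -0.36 without WT replicate 2 (adjusted p = 0.0490), -0.35 ± 0.13 in KK (adjusted p = 0.0461), and -0.22 ± 0.13 in R109K (adjusted p = 0.226). Without pTRE replicate 1, CARM1 passed in WT at -0.56 (adjusted p = 0.00424), and DESeq2 called it with all samples (adjusted p = 0.00692). YIPF2, on the other strand, shares 891 bases of exon with CARM1 and stood at 12.4 to 23.1 CPM. The libraries were made with a directional kit, but whether the counting used strand is not given in the sources used here. Reads in such overlaps may therefore belong to either gene, or may have been set aside. The counts list 0.866% to 2.16% of a sample's reads as ambiguous. PRMT5 shares 924 bases of exon with PRMT5-AS1. This antisense RNA was not found by name among the counted genes and was not analysed here, so reads in that overlap may belong to either.

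PRMT6 (chr1:107599296-107610258, plus strand) is a nuclear enzyme that methylates histone H3 and has a transcript of 1 exon. It stood at 43.5, 47.7, and 44.9 CPM in pTRE and 38.0, 23.4, and 34.0 in WT. R109K had 43.3, 43.6, and 34.2, and KK had 38.5, 32.3, and 31.3. WT and KK were wholly below pTRE, and WT replicate 2 was the lowest sample of all. The difference was -0.50 ± 0.16 in WT (adjusted p = 0.0204), or -0.33 without WT replicate 2 (adjusted p = 0.0669), -0.41 ± 0.16 in KK (adjusted p = 0.0530), and -0.17 ± 0.16 in R109K (adjusted p = 0.479). Without WT replicate 1 the WT value was -0.66 and passed (adjusted p = 0.00920).

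PRMT3 (chr11:20409104-20530884, plus strand) is a cytosolic writer of the small ribosomal protein RPS2. It stood at 40.0, 37.1, and 29.8 CPM in pTRE and 53.3, 39.4, and 40.5 in WT. R109K had 38.3, 40.5, and 32.6, and KK had 45.6, 39.5, and 39.2. The lines overlapped. The estimates were 0.32 ± 0.15 in WT (adjusted p = 0.0929), or 0.40 without WT replicate 2 (adjusted p = 0.0553), 0.06 ± 0.15 in R109K (adjusted p = 0.805), and 0.22 ± 0.15 in KK (adjusted p = 0.266), and the value in R109K turned negative without pTRE replicate 3 (-0.054) or R109K replicate 2 (-0.0060). PRMT8 (chr12:3490515-3703139, plus strand), which sits at the plasma membrane in neurons, had 1 to 9 reads per sample. It was not tested, and no difference in it was detectable at this depth.

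PRMT7 (chr16:68344854-68394755, plus strand) writes monomethylarginine. It stood at 35.4, 37.05, and 42.5 CPM in pTRE and 29.5, 28.3, and 31.0 in WT. R109K had 30.2, 31.1, and 30.7, and KK had 28.9, 32.8, and 30.1. Every sample of the E2F1 lines lay below every pTRE sample, and the lines overlapped one another. The difference from pTRE was -0.37 ± 0.11 in WT (adjusted p = 0.0127), -0.32 ± 0.11 in R109K (adjusted p = 0.0341), and -0.33 ± 0.11 in KK (adjusted p = 0.0264), so none passed 0.01 by edgeR, and DESeq2 called it in WT (adjusted p = 0.00399). Without WT replicate 2 the WT value was -0.34 (adjusted p = 0.0335). SMPD3, on the other strand, shares 1931 bases of exon with PRMT7 at its 3′ end. SMPD3 stood at 3.69 to 7.93 CPM and fell in R109K (-0.69 ± 0.17, adjusted p = 0.00595) and KK (-0.77 ± 0.17, adjusted p = 0.00228), and its part in the PRMT7 values was not tested. SLC7A6OS, whose start lies 73 bases away on the other strand, did not pass in any line (0.24 ± 0.17 in WT, 0.20 ± 0.17 in R109K, and 0.16 ± 0.17 in KK).

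SND1 (chr7:127292248-127732661, plus strand, 24 exons) encodes the Tudor domain protein that binds symmetrically methylated E2F1 and parts of the splicing machinery. It stood at 209, 212, and 227 CPM in pTRE and 199, 167, and 199.6 in WT. R109K had 197, 201, and 193, and KK had 202, 203, and 189. All samples of the E2F1 lines lay below pTRE, with the lowest value in WT replicate 2. The differences were small and none passed: -0.20 ± 0.11 in WT (adjusted p = 0.156), -0.13 ± 0.11 in R109K (adjusted p = 0.392), and -0.13 ± 0.11 in KK (adjusted p = 0.389). Without WT replicate 2 the WT value was -0.12 (adjusted p = 0.388). The 95% intervals reached -0.42 in WT, -0.36 in R109K, and -0.35 in KK.

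The ratio of SND1 to PRMT5 in a sample was 1.87, 1.67, and 1.97 in pTRE and 1.95, 2.19, and 2.15 in WT. In R109K it was 2.45, 2.17, and 2.36, and in KK 2.41, 2.19, and 2.25. R109K and KK lay above all pTRE samples, by 0.34 and 0.31 on the log2 scale (exact permutation p = 0.1, adjusted 0.15), and WT overlapped pTRE (0.19, exact permutation p = 0.2, adjusted 0.24). KK also lay above WT in all samples, by 0.12, but KK replicate 2 (2.186) and WT replicate 2 (2.185) were level.

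Another gene lies inside SND1. LRRC4, a neuronal adhesion protein gene at chr7:127667124-127672160 on the minus strand, shares no exon bases with SND1. Reads on LRRC4 numbered 12 to 15 per pTRE sample. WT samples had 91 to 187 of them, R109K samples 41 to 61, and KK samples 82 to 140. LRRC4 rose in all 3 lines (log2 fold change 3.71 ± 0.38 in WT, 1.76 ± 0.40 in R109K, and 3.01 ± 0.38 in KK, adjusted p = 2.69e-06, 0.00348, and 2.08e-05), and was lower in R109K than in WT (-1.94 ± 0.33, adjusted p = 0.00684). SND1 itself passed in none of these comparisons. SND1-IT1, an RNA annotated inside SND1, had 98 reads in WT replicate 2 and 8 to 46 in the other samples, and MIR593, also inside SND1, reached 0.562 CPM in WT replicate 2 against 0.130 or less elsewhere. SND1-IT1 lies on the same strand and shares 480 bases of exon with SND1, so reads there may belong to either or have been set aside as ambiguous.

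R109K, KK, and WT were next compared directly, since these lines differ in whether the site of a writer is mutated. They also differed in E2F1 level, with every WT sample above every R109K sample, and in the line itself. Effects of the site, the E2F1 level, and the line cannot be told apart here. In the unpaired fit by edgeR 0 of 9 genes passed an adjusted p of 0.01 in each comparison, and by DESeq2 likewise 0. Of all tested genes, 0.71% passed for R109K against WT, 0.012% for KK against WT, and 0.132% for R109K against KK. At an unadjusted p under 0.05, 0 of 9 passed for R109K against WT (background 22.3%), 0 of 9 for KK against WT (background 8.51%), and 1 of 9, PRMT2, for R109K against KK (background 12.4%). The R109K and KK samples deviated together by replicate number, and with the 3 numbers as pairs in a fit to these 6 samples, 1 of 9 genes, PRMT2, passed 0.01 (background 11.5%) and 3, PRMT2, PRMT3, and PRMT6, had an unadjusted p under 0.05 (background 33.8%). PRMT6 was then 0.24 ± 0.08 higher in R109K (adjusted p = 0.0303) and PRMT3 was at -0.16 ± 0.08 (adjusted p = 0.146). Without pair 2 PRMT3 was at -0.25 and passed (adjusted p = 0.00154), in a fit that called 3496 of 16172 genes. In the paired fit with all 3 pairs, PRMT1 differed by 0.03 (95% interval -0.09 to 0.15), PRMT5 by -0.04 (-0.16 to 0.09), and SND1 by -0.01 (-0.13 to 0.11). PRMT1 differed by 0.29 between R109K and WT (95% interval -0.08 to 0.67), or by 0.12 without WT replicate 2. PRMT5 differed by -0.06 between KK and WT (95% interval -0.32 to 0.20) and by -0.09 between R109K and WT (-0.35 to 0.16). Without WT replicate 2 these PRMT5 differences were -0.16 and -0.20. For SND1 the difference was 0.06 between R109K and WT (-0.16 to 0.29) and 0.07 between KK and WT (-0.16 to 0.30). Without WT replicate 2 the SND1 differences were -0.021 and -0.0092.

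Across the 12 samples the genes moved together in part. Pearson's r of log2 CPM was 0.91 for PRMT1 with WDR77 and 0.86 for CARM1 with PRMT7, and it was -0.70 for PRMT2 with PRMT3 and -0.68 for CARM1 with PRMT3. Without WT replicate 2 these were 0.80, 0.86, -0.75, and -0.79. PRMT5 with its partner WDR77 gave 0.60, or 0.49 without that sample. These are descriptions over samples that share lines and library features. By the same measure, among 13304 genes with a mean of at least 50 reads, PRMT1 was most like URM1 (0.99), TIMM17B (0.98), and EIF5A (0.98). PRMT5 was most like MINA (0.96), OSGEP (0.94), and GMPR2 (0.94), and SND1 was most like APEH (0.97), MUL1 (0.96), and LYPLA2 (0.96). Without WT replicate 2, URM1 stayed first for PRMT1, MINA and GMPR2 stayed among the 3 for PRMT5 behind IPO4 (0.97), and SND1 had 3 other genes, PTPRN, SLC25A1, and CARS.

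Other genes of arginine methylation were taken from 8 lists. Among the 3 other arginine methyltransferases, METTL23 fell in WT (-0.48 ± 0.11, adjusted p = 0.00391) and KK (-0.42 ± 0.11, adjusted p = 0.00928), and it was -0.27 ± 0.11 in R109K (adjusted p = 0.0873). PRMT9 and NDUFAF7 did not pass in any line, and the medians of the 3 were -0.21, -0.27, and -0.34 in WT, R109K, and KK. Of the 6 partners of the enzymes, among them the PRMT5 adaptors CLNS1A, RIOK1, and COPRS, 0 passed by edgeR in each line, with 2, 0, and 3 at an unadjusted p under 0.05 in WT, R109K, and KK, where the shares over all tested genes were 49%, 38.6%, and 45.6%. Their medians were 0.04, 0.14, and 0.17. DESeq2 called CLNS1A and BTG1 in WT, and edgeR called BTG1 without WT replicate 2. CLNS1A, which brings Sm proteins to PRMT5, was at -0.41 ± 0.12 in WT (adjusted p = 0.0126). Of the 8 tested genes of the methyl donor cycle, which makes S-adenosylmethionine and clears its product, 0 passed by edgeR or by DESeq2, with 2, 2, and 3 at an unadjusted p under 0.05 (background 49%, 38.6%, and 45.6%) and medians of -0.08, -0.10, and -0.16.

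Of the 8 genes listed as deiminases, JMJD6, and DDAH enzymes, 5 were tested, and they moved in both directions. By edgeR 2 rose and 2 fell in WT (background 14.8% and 11.4%). In R109K 1 rose and 2 fell (10% and 7.23%), and in KK 2 rose and 2 fell (13.8% and 10.7%). DDAH1, which breaks down free asymmetric dimethylarginine, stood at 49.5 to 58.1 CPM in pTRE and at 105 to 163 in the E2F1 lines. DDAH1 rose in all 3 lines (1.42 ± 0.13 in WT, 1.00 ± 0.13 in R109K, and 1.33 ± 0.13 in KK). Its relative DDAH2 went the other way, from 43.6 to 59.3 CPM in pTRE to 15.4 to 28.7, and fell in all 3 (-1.28 ± 0.17, -0.96 ± 0.17, and -1.06 ± 0.17). JMJD6, a Jumonji family hydroxylase that has been described as an arginine demethylase, rose in WT (0.61 ± 0.12, adjusted p = 0.00121) and KK (0.59 ± 0.12, adjusted p = 0.00159), and was 0.32 ± 0.12 in R109K (adjusted p = 0.0663). PADI1, a peptidylarginine deiminase, had 18 to 24 reads per sample in pTRE and 1 to 10 elsewhere. PADI1 fell in all 3 lines by edgeR (-1.83 ± 0.48, -1.81 ± 0.46, and -1.70 ± 0.46, adjusted p = 0.00682, 0.00841, and 0.00951), DESeq2 called it in none, and the WT call was lost without WT replicate 2. Its relative PADI3 was at -1.26 ± 0.35 in WT (adjusted p = 0.0101), where DESeq2 called it, and passed in edgeR without WT replicate 2. The medians of the 5 tested genes were -1.26, -0.92, and -0.93.

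Of 8 tested Tudor domain readers other than SND1, STK31 rose in WT (1.78 ± 0.44, adjusted p = 0.00466) from 8 to 13 reads per sample in pTRE to 17 to 39, and it lost the call without WT replicate 2. In R109K and KK 0 of 8 passed by either tool, with 1 at an unadjusted p under 0.05 in each (background 38.6% and 45.6%), and STK31 passed in KK without WT replicate 2. The list medians were -0.02, 0.21, and 0.14. SMN1 and SMN2 were listed at 0 reads in all 12 samples. They are near-identical copies, so their counts are uncertain. Among 6 PRMT5 substrates, COIL, the coilin of Cajal bodies, rose in R109K (0.44 ± 0.11, adjusted p = 0.00821), with 85.0 to 88.4 CPM against 57.2 to 72.7 in pTRE, and was -0.02 ± 0.11 in WT and 0.13 ± 0.11 in KK. In WT and KK 0 of the 6 passed by either tool, with 0 at an unadjusted p under 0.05 (background 49% and 45.6%). Of 7 PRMT1 substrates and 6 CARM1 substrates, 0 passed by edgeR in each line. At an unadjusted p under 0.05 the PRMT1 substrates had 1, 1, and 2 and the CARM1 substrates 1, 3, and 1 in WT, R109K, and KK (background 49%, 38.6%, and 45.6%). DESeq2 called SMARCC1 in R109K and ELAVL1 in KK. The 3 lists of substrates had medians between -0.14 and 0.28. The WT medians without WT replicate 2 were -0.27 for the other methyltransferases, 0.12 for the partners, -0.12 for the methyl donor cycle, and 0.05 for the Tudor readers. They were -1.11 for the deiminases, JMJD6, and DDAH enzymes, 0.0082 for PRMT5 substrates, 0.04 for PRMT1 substrates, and 0.05 for CARM1 substrates. Those of the Tudor readers and of the PRMT5 and PRMT1 substrates thus turned from negative to positive.

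**Figure D5:**
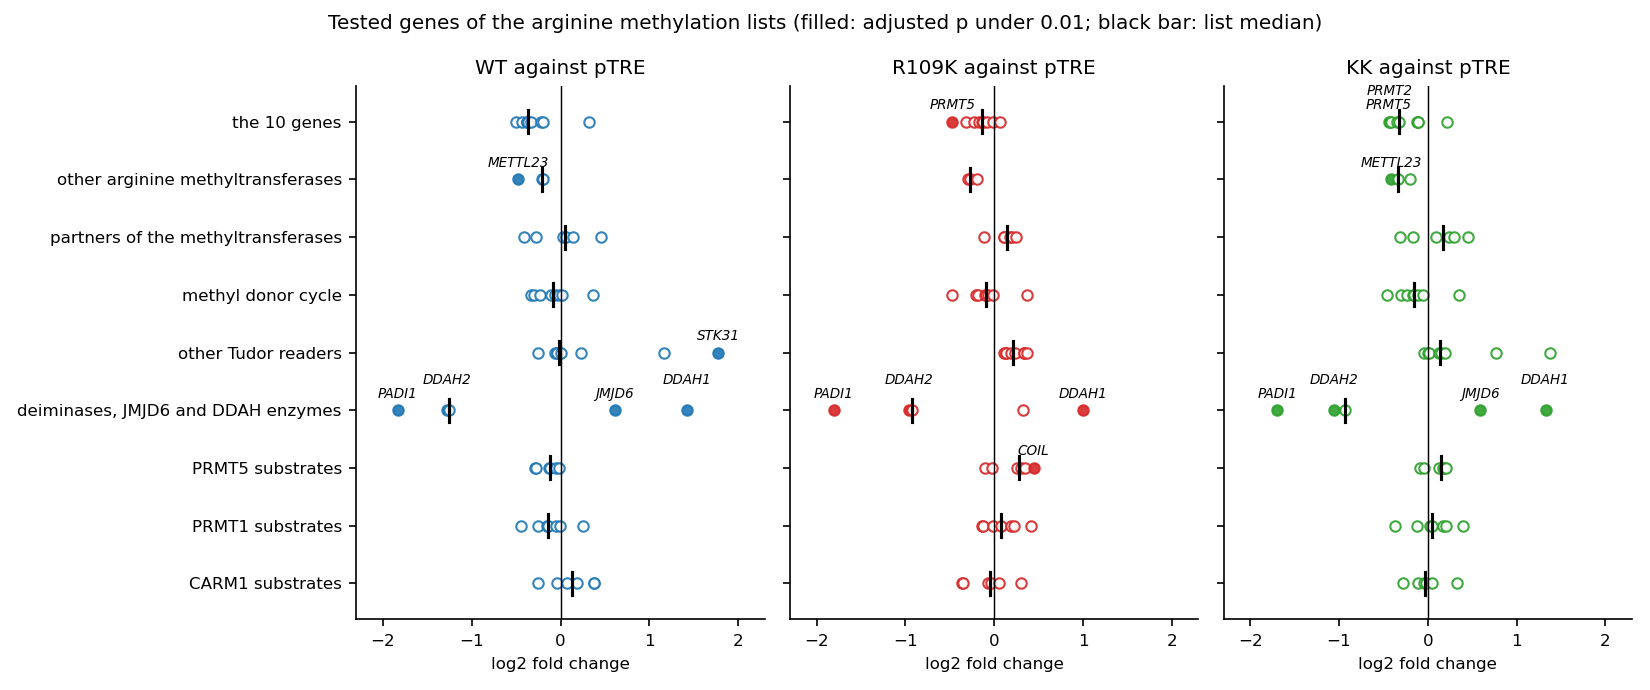
Log2 fold change against pTRE of the tested genes of each list in the 3 E2F1 lines, with filled and named points for an adjusted p under 0.01 and a black bar for the list median. DDAH1 lies to the right and DDAH2 and PADI1 to the left in all 3 lines, while the 9 tested genes of the 10 named at the outset lie within 2-fold of pTRE.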

How the data were processed

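Poly(A) RNA of 12 samples was sequenced, and the authors deposited unnormalized counts of reads per gene symbol, followed by 5 summary lines, which hold 34.3% to 68.8% of a sample's reads and were left out of tests. Per the study's methods and the submitters' processing notes, reads were trimmed with Trim Galore 0.4.3 and aligned to hg19 with STAR 2.5.1. The gene annotation and the use of strand in counting are not given in the sources used here. Samples were grouped by line.

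Tests used edgeR 4.0.16 (R 4.3.3). filterByExpr kept 16625 genes, TMM factors scaled the libraries, and a single quasi-likelihood fit took in all 12 samples (common dispersion 0.0239). p-values were adjusted by Benjamini-Hochberg over all tested genes, and a change was called at 0.01. CPM values use TMM library sizes. With 3 samples per line, p-values measure the spread between cultures of 1 line. Ratios were compared by two-sided exact permutation tests. The script was tested on simulated data. Residuals of same-number R109K and KK samples correlated at 0.29 to 0.47 in the 3 pairs (other R109K and KK samples -0.34 to 0.04), so these 2 lines were also compared as pairs. The labels give the numbers but do not say what they share. Positions, exons, promoters, and transcript lengths come from GENCODE and GRCh37. The genes and lists were chosen with earlier results of these data known.

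Genes named in the text are the 10 genes, E2F1, genes of the other lists that passed with no overlap of replicates (at most 2 rises and 2 falls per list, and those that a small count refers to), neighbours inside a gene or starting within 1 kilobase on the other strand, and the 3 genes most like PRMT1, PRMT5, and SND1. CLNS1A, YIPF2, SMPD3, PRMT5-AS1, SMN1, and SMN2 were named after their values were seen, as were genes called only by DESeq2 or only without WT replicate 2, and the markers described. Alternatives were DESeq2 1.42.0, RLE normalization, other filters, only the 6 samples of a comparison, the replicate number as a block, each sample left out, a threshold of 0.05, no pseudocount in the ratios and, added after seeing the data, library totals alone and the paired fit of R109K and KK, whole and without each pair.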

Additional observations from a re-analysis of the deposited data

How the results depend on the processing

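The count of the 9 tested genes past an adjusted p of 0.01 was 0 in WT, 1 in R109K, and 2 in KK against pTRE. At an adjusted p of 0.05 these were 5, 2, and 4, all lower (background 18.7%, 12.9%, and 17.3%), and the test for any difference gave 3. DESeq2 gave 3 in WT and 3 for any difference. Over all genes, the other settings at 0.01 called 3351 to 5193 in WT and 3657 to 5390 for any difference. The numbers for DESeq2 alone within these ranges are not given here. With no filter on low counts, R109K and KK had 0. RLE normalization and a fit to only the 6 samples of the comparison each gave 0 in KK. Library totals alone gave 1 for any difference. In the 5 comparisons other than R109K against KK, samples with the same number had residual correlations of -0.29 to 0.24. What such samples share is not given in the labels. The highest value was in WT against pTRE, where 2 of 3 same-number pairs passed 0.1 and samples of other numbers reached 0.086. With the replicate number as a block in the fit to all samples, R109K had 0 and KK had 1, and PRMT5 was at -0.47 in R109K (adjusted p = 0.0135) and -0.44 in KK (adjusted p = 0.0153). With each sample of a comparison left out, the count ranged from 0 to 1 in WT and was 0 to 0 in R109K and KK, and from 0 to 1 for any difference, where the 1 came without WT replicate 2. Leaving out a sample leaves 2 in its line, and the cause of the other shifts was not tested. For R109K against KK, whose numbers pair the samples, the block in a fit to its 6 samples, added after seeing the data, called 1 of the 9 (PRMT2) and 1853 of 16069 genes, and with each pair left out 0 to 2 of the 9 and 911 to 3496 genes. The counts of 0 among the 9 in the direct comparisons did not change otherwise, but over all tested genes the 118, 2, and 22 called for R109K against WT, KK against WT, and R109K against KK became 546, 11, and 256 with DESeq2, 220, 5, and 62 with no filter, and 0, 0, and 3 with only 6 samples.

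Directions turned only in differences that did not pass. Over samples left out, PRMT3 in R109K against pTRE ranged from -0.054 to 0.15 and WDR77 from -0.13 to 0.079. In R109K against WT, PRMT5 ranged from -0.20 to 0.0040 and SND1 from -0.021 to 0.11. In KK against WT, PRMT2 ranged from -0.16 to 0.020, PRMT3 from -0.18 to 0.060, PRMT6 from -0.081 to 0.24, PRMT5 from -0.16 to 0.041, WDR77 from -0.0024 to 0.21, PRMT7 from -0.0060 to 0.095, and SND1 from -0.0092 to 0.12. In R109K against KK, PRMT1 ranged from -0.12 to 0.18, PRMT5 from -0.10 to 0.016, WDR77 from -0.013 to 0.19, PRMT7 from -0.045 to 0.057, and SND1 from -0.043 to 0.011. The sign turned with library totals alone for PRMT7, R109K against WT (-0.0051). For PRMT7, R109K against KK, it turned with RLE normalization (-0.0039), at least 10 counts in every sample (-0.0010), library totals alone (-0.016), and DESeq2 (-0.0022). SND1 turned in R109K against KK with no filter on low counts (0.0014). The ratios kept their direction without the added reads. Each of the 9 genes had at least 291 reads in every sample, and edgeR put the spread between replicates at 15.5% (biological coefficient of variation).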
